A study of Mus musculus with 15 samples.

Results

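The 7 genes Ms4a4a, Ms4a4b, Ms4a4c, Ms4a6b, Ms4a6c, Ms4a6d and Ms4a7 were followed across 15 mouse bone marrow samples by bulk sequencing of total RNA. They were taken by name from a table of 38315 genes, and all 7 were found. They lie in one gene cluster and were selected on the level of Ms4a4a in leukaemic against whole marrow, with the others taken as its close paralogs, so the values in acute myeloid leukaemia (AML) against whole marrow are a description here and carry no test. The AML group had 7 marrows of the genotype NUP98-NSD1/FLT3-ITD. NUP98-NSD1 is a fusion of a nuclear pore protein with the histone methyltransferase NSD1, and FLT3-ITD is a form of the cytokine receptor FLT3 that carries a tandem repeat of part of its own sequence. Wild-type mice gave both reference groups: 4 whole marrows and 4 lineage-negative marrows, in which mature blood cells have been removed by their lineage antigens. The AML samples are labelled as marrow tissue, with no sorting of leukaemic cells stated. The promoter that drives each allele, the age of the mice and the animal behind each sample are not given in the sources used here. P-values therefore measure the spread between these samples. In bulk samples, fewer cells of a type and less RNA per cell cannot be told apart.

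MS4A proteins cross the membrane in 4 segments, and several of them sit beside signalling receptors. The best known are MS4A1, the B cell antigen CD20, and MS4A2, the beta chain of the high-affinity receptor for immunoglobulin E. The MS4A4, MS4A6 and MS4A7 branches are known mainly from monocytes and macrophages, except Ms4a4b, which was described in mouse T cells. Human MS4A4A associates on macrophages with the beta-glucan receptor dectin-1 and has been linked to TREM2, a lipid receptor of macrophages.

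Values are normalized counts: estimated reads per gene divided by 1 factor per library. Depth was estimated at 20.3 to 35.1 M reads (M, mega) in AML, 11.4 to 17.2 in whole marrow and 20.3 to 28.1 in lineage-negative marrow. Over 18941 genes with enough reads, whole marrow lay below the others: AML exceeded it by a median of 0.67 on the log2 scale and lineage-negative marrow by 0.59, while AML exceeded lineage-negative marrow by 0.02. Scaling by the trimmed mean of M values (TMM) brought these medians to −0.01, −0.089 and 0.025, so TMM values are given beside the comparisons with whole marrow. Replicate 1 stood apart from the other whole marrows: TMM moved it by 1.09 on the log2 scale and the other 3 by 0.29 to 0.34. Without it, the same numbers of members were called as below. Whole marrow also carried more background. Its mean over 1750 olfactory and vomeronasal receptor genes was 6.31 to 11.9 normalized counts, against 0.325 to 0.462 in lineage-negative marrow. Among AML libraries, replicates 6 and 5 had means of 3.34 and 1.15, and the others 0.642 or less. All 6 progenitor markers (among them Kit, Cd34 and Meis1) were called higher in lineage-negative than in whole marrow under both scalings. Of all genes, 33.1% were called higher there, or 11.1% with TMM.

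The 7 genes lie on chromosome 19 between bases 11298403 and 11582213 by the coordinates of the table. In order they are Ms4a7, Ms4a4a, Ms4a4c, Ms4a4b, Ms4a6c, Ms4a6b and Ms4a6d, with Ms4a7 and Ms4a6d on the minus strand and the others on the plus strand. The starts in the table are 22636 bases below those of a GRCm38 annotation for every gene of the cluster, so the table is on other coordinates than GRCm38 although the submitters' processing notes name mm10. Their coding sequences in GRCm38 were most alike for Ms4a4b and Ms4a4c, at 91.7% identity, followed by Ms4a6b and Ms4a6d at 80.6% and Ms4a6b and Ms4a6c at 75.7%. The least alike were Ms4a4b and Ms4a7, at 49.9%. Sequence shared with other genes, members or not, bears on the counts. Of all 50-base windows along the transcripts, 11.3% in Ms4a6c, 8.2% in Ms4a4c, 5.9% in Ms4a6b, 4.2% in Ms4a4b and 2.7% in Ms4a6d also occur in transcripts of other genes, against 0% in Ms4a4a and Ms4a7. Ms4a6c shared 6.1% with Ms4a6b, and 3.7% with Prdm11 and smaller parts with further genes outside the family. Ms4a4b shared 2.9% with Ms4a4c and 1.3% with Ms4a2.

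The estimated reads divide the genes too. Those of Ms4a4a, Ms4a6d and Ms4a7 were whole numbers, within 0.05 of a read, in 15 of 15 libraries. Those of Ms4a4b, Ms4a4c, Ms4a6b and Ms4a6c were whole in 4, 4, 5 and 1 libraries. The sum of Ms4a4b and Ms4a4c was whole in 15 of 15. Reads common to those 2 genes were thus shared out between them, and part of the value of each of these 4 genes depends on the sharing. The sum of Ms4a6b and Ms4a6c was whole in 1 of 15, so their shared reads also involved other genes.

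Upstream sequence was found in the RefSeq table of mouse promoters (GRCm38.p6) for 6 of the 7 genes, all but Ms4a6d. The pairs Ms4a4b/Ms4a4c and Ms4a6b/Ms4a6c are printed because within each pair the upstream regions can be aligned over a long stretch while the transcripts stood at different levels. Each is given 5′ to 3′ on the plus strand, holds no base of an exon annotated in GRCm38, and has in capitals the runs of at least 12 bases identical to its partner. The windows of Ms4a4c and Ms4a6b lie before the RefSeq start used here but inside the span of the gene as annotated in GRCm38.
Ms4a4b, chr19:11443308-11443552: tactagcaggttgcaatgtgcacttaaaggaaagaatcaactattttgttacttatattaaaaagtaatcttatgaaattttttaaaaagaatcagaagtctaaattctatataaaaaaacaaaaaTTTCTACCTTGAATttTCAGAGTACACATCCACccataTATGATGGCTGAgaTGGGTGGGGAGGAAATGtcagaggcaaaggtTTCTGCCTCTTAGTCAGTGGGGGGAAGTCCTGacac
Ms4a4c, chr19:11407411-11407660: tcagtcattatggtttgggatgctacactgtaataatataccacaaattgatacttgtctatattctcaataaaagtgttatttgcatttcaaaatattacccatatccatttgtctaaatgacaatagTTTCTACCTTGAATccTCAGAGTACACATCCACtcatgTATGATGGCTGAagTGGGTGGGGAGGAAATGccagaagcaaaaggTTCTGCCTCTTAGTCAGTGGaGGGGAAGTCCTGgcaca
Ms4a6b, chr19:11518309-11518452: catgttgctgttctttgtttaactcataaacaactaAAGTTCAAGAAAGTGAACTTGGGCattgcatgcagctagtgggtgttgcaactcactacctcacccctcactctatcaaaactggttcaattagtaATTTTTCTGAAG
Ms4a6c, chr19:11469118-11469365: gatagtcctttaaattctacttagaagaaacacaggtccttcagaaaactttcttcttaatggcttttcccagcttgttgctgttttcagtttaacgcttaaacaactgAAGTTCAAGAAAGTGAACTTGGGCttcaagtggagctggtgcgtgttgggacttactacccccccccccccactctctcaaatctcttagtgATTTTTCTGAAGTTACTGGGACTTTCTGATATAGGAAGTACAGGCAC

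Within the 250 bases before the start, Ms4a4b and Ms4a4c aligned over 128 columns with 89.1% identity. Ms4a6b and Ms4a6c aligned over 182 columns with 83.5% identity, with a longest identical run of 48 bases, most of which lies beyond the printed end of Ms4a6b because it is annotated as exon there. Every other pair of the 6 windows aligned over 22 columns or fewer. The letters of 3 motifs were searched on both strands. GAGGAAGT, of the type bound by PU.1, occurs in 2.44% of 32851 mouse windows of this kind, TTGCNNAA, of the C/EBP type, in 9.56%, and the core of the interferon-stimulated response element in 2.98%. None of the 6 windows holds any of the 3. The shorter ETS-type core GGAAGT, which is contained in GAGGAAGT and was added afterwards, occurs in 19.7% of windows. It is present in those of Ms4a4b, Ms4a4c, Ms4a6b, Ms4a6c and one of 2 listed for Ms4a7, at base −19, −15, −85 and −43, −16 and −15 from the start, and not in that of Ms4a4a.

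Ms4a4a, Ms4a4c, Ms4a6b and Ms4a6c were higher in each AML marrow than in each of the 8 normal marrows. Ms4a4b and Ms4a6d overlapped in part between AML and whole marrow, and Ms4a7 stood at like levels in both. In each of the 7 AML marrows, all 7 genes were above all 4 lineage-negative marrows. The share of all genes that separate in these ways was not counted, so nothing is read from the separation alone. The summed normalized count of the 7 genes was 11649 to 28511 in AML, 2138 to 5239 in whole marrow and 2566 to 3972 in lineage-negative marrow. Against lineage-negative marrow, 6 of the 6 genes tested were called higher in AML (limma, adjusted p under 0.05 and a log2 difference of at least 1), where 17.7% of all genes were called higher and 12.5% lower. Their log2 differences, Ms4a4a included, ran from 2.07 to 6.84 with a median of 4.21. Ms4a4a was left out of the tests because its level in AML chose the set. The values of the other 6 in the same AML libraries were known when the set was drawn up, so their p-values are not independent of that choice. In lineage-negative against whole marrow, 4 of 6 were called lower with none higher, where 17.2% of all genes were called lower and 33.1% higher. With TMM scaling the count was 5 of 6, beside 24.7% lower and 11.1% higher. Against whole marrow the median difference of the 7 genes in AML was 2.28, or 1.58 with TMM, where 27.3% of genes were called higher and 11.3% lower (4.74% and 16% with TMM). That contrast chose the genes, so nothing is read from it.

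**Figure D1:**
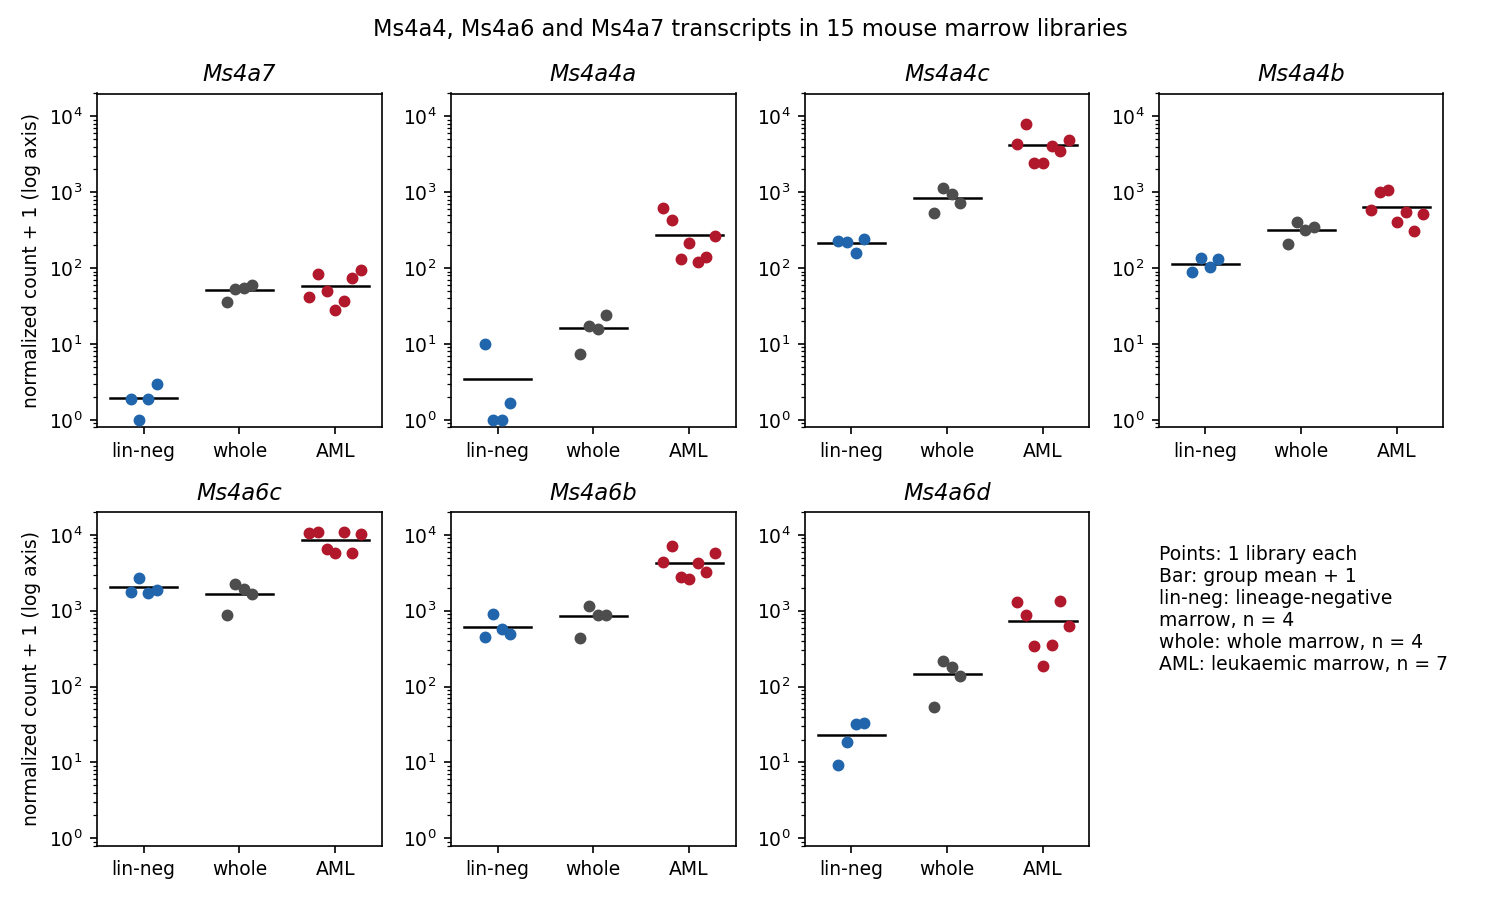
Normalized count + 1 (log axis) of each gene in every library, with 1 point per library and a bar at the group mean + 1. AML is above lineage-negative marrow without overlap for all 7 genes, and Ms4a7 overlaps between AML and whole marrow.

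Ms4a4a, the mouse namesake of the human macrophage protein MS4A4A, was scarce in normal marrow. It was measured at 6.28, 16.1, 14.6 and 23.2 normalized counts in the 4 whole marrows and at 9.08, 0, 0 and 0.653 in lineage-negative replicates 1 to 4. In AML the lowest, median and highest values were 121, 215 and 627. All 7 AML marrows were above all 8 normal marrows, and the lowest was 5.21 times the highest normal value. AML averaged 276 ± 190 (SD, n = 7) and whole marrow 15.04 ± 6.94 (SD, n = 4), a ratio of 18.3. The log2 difference between AML and whole marrow was 3.97 ± 0.59 (SE), and 3.32 with TMM. The whole marrow values rest on few reads. Replicate 1, at 6.28, was below its receptor gene background of 11.9, and replicates 2 to 4 were above theirs of 7.80, 7.81 and 6.31. In lineage-negative marrow only 11 reads were counted, 10 of them in replicate 1. The ratio of AML to lineage-negative means was 113, with a 95% interval of 63.4 to 227 from the counting error of those 11 reads alone.

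Ms4a4c, of the same branch, stood between Ms4a6b and Ms4a6c in AML by level per length. It was measured at 528, 1147, 952 and 720 in whole marrow and at 225, 223, 157 and 243 in lineage-negative marrow. In AML the lowest, median and highest values were 2393, 4069 and 7977. No 2 of the 3 groups overlapped, in the order lineage-negative, whole, AML. AML was higher than lineage-negative marrow by 4.21 ± 0.28 on the log2 scale (adjusted p = 5.64e-10, 7 of 7 above every lineage-negative sample). Lineage-negative was lower than whole marrow by a log2 difference of −1.93 ± 0.32 (adjusted p = 3.06e-05, 4 of 4 below every whole marrow) and by −2.63 with TMM. The AML mean was 5.03 times that of whole marrow, a log2 difference of 2.28, or 1.58 with TMM.

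Ms4a4b, which in mice was described in T cells, showed the same order with smaller steps. Whole marrow had 204, 402, 318 and 348, and lineage-negative marrow had 88.0, 133, 102 and 130. In AML the values ran from 311 through a median of 546 to 1076. AML replicates 4 and 6 (400 and 311) lay within the range of whole marrow and the other 5 above it. The gene was called higher in AML than in lineage-negative marrow (log2 difference 2.37 ± 0.30, adjusted p = 2.07e-06, 7 of 7 above every lineage-negative sample). It was called lower in lineage-negative than in whole marrow (−1.46 ± 0.33, adjusted p = 0.000823; TMM −2.15). Against whole marrow the difference of 0.91 in AML was close to the median of all genes, 0.67, and was 0.21 with TMM. T cell markers stood beside it as follows. All 10 (Cd3d, Cd3e, Cd3g, Cd4, Cd8a, Cd5, Lck, Cd28, Lef1 and Cd2) were called higher in AML than in lineage-negative marrow, with sums of 1235 to 5424 and 226 to 477, and 816 to 1232 in whole marrow. Within AML, replicate 3 had the highest Ms4a4b value and the highest T cell sum, 5424. Replicate 6 had the lowest Ms4a4b value and the second highest sum, 5112. The part of T cells in the level of Ms4a4b was not tested.

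The MS4A6 genes differed from one another in mean level in all 3 groups. Only Ms4a6d among them was called lower in lineage-negative than in whole marrow as deposited. Ms4a6c was measured at 1781, 2704, 1732 and 1896 in lineage-negative marrow, and at 872, 2255, 1926 and 1639 in whole marrow. These ranges overlapped, and the difference did not pass the test (log2 0.34 ± 0.29, adjusted p = 0.323; with TMM −0.36, adjusted p = 0.166). In AML its lowest, median and highest values were 5836, 10202 and 10910. All 7 were at least 2.16 times the highest normal value. The difference between AML and lineage-negative marrow was 2.07 ± 0.26 (adjusted p = 2.23e-06), and that between AML and whole marrow 2.40, or 1.71 with TMM.

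Ms4a6b, its neighbour with the alignable upstream region, was measured at 441, 1152, 888 and 876 in whole marrow and at 454, 894, 581 and 499 in lineage-negative marrow. AML gave 2593, 4222 and 7223 as the lowest, median and highest. The 2 normal groups overlapped, and all AML marrows were at least 2.25 times the highest normal value. AML was higher than lineage-negative marrow by 2.79 ± 0.29 on the log2 scale (adjusted p = 1.74e-07). The difference of lineage-negative from whole marrow was −0.44 ± 0.32 and did not pass (adjusted p = 0.248). After TMM scaling it was −1.13 and passed (adjusted p = 0.00174), so this call depends on the scaling. The difference between AML and whole marrow was 2.35, or 1.66 with TMM.

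Ms4a6d behaved unlike the other MS4A6 genes in lineage-negative marrow, where it was scarce. It was measured there at 8.17, 17.6, 30.8 and 32.0, against 52.1, 214, 179 and 136 in whole marrow. AML ranged from 184 through 633 to 1360, the widest spread of the MS4A6 genes as a ratio of highest to lowest value. Lineage-negative and whole marrow did not overlap, and AML replicate 4 fell within whole marrow while the other 6 were above it. Both tested differences passed: 4.82 ± 0.51 for AML against lineage-negative marrow (adjusted p = 2.57e-07) and −2.66 ± 0.58 for lineage-negative against whole marrow (adjusted p = 0.000528; TMM −3.34). AML against whole marrow was 2.16, or 1.47 with TMM.

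Ms4a7, a marker of tissue and border macrophages, stood at like levels in AML and whole marrow. Whole marrow had 35.003, 52.3, 54.3 and 58.7 and AML had a lowest value of 27.04, a median of 49.0 and a highest of 93.8. In AML, 3 marrows were above every whole marrow, 1 was below every whole marrow and the other 3 lay between. The group means, 57.3 ± 25.5 (SD, n = 7) and 50.05 ± 10.4 (SD, n = 4), differed by less than the SD within AML. The log2 difference was 0.09 ± 0.39, below the median of all genes, −0.59 with TMM and −0.07 without whole marrow replicate 1, so its sign depends on both. In lineage-negative marrow Ms4a7 was nearly missing, at 0.908, 0, 0.881 and 1.96, which is 5 reads over 4 libraries. AML and whole marrow were above it by ratios of means of 61.2 (95% counting interval 26.2 to 189) and 53.4 (22.9 to 165). Both differences passed, with log2 values of 4.89 (adjusted p = 6.34e-09) and −4.80 for lineage-negative against whole marrow (adjusted p = 9.49e-08; TMM −5.37). Their size depends on the pseudocount, between 2.53 and 6.29 for the first.

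**Figure D2:**
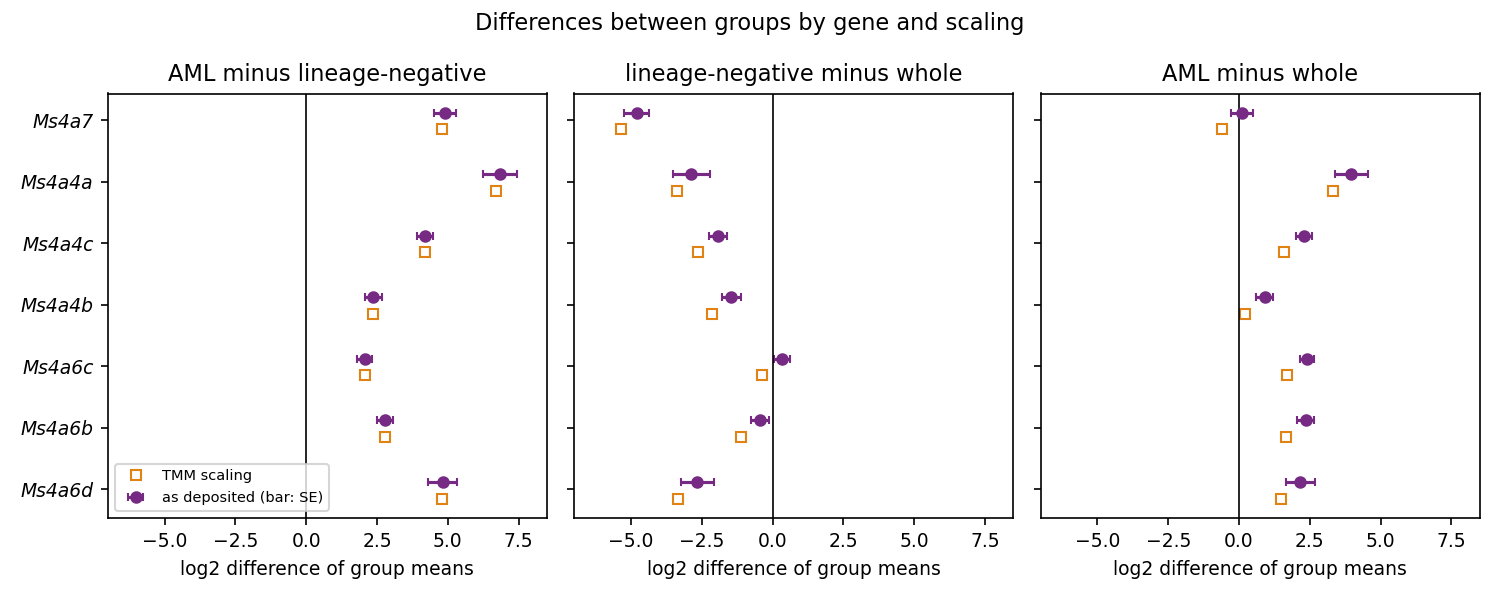
Log2 difference of group means for each gene in the 3 comparisons, as deposited (circles, bars SE) and after TMM scaling (squares). AML against lineage-negative marrow is above 2 for all 7 genes under both scalings, and the comparisons with whole marrow move down with TMM, past 0 for Ms4a6c in lineage-negative marrow and for Ms4a7 in AML.

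Levels per length show which genes make up the family signal in a library. This quantity, the normalized count per kilobase of protein-coding transcript exons, does not depend on how libraries are scaled once it is given as a share of the 7 genes. Ms4a6c was the leading gene in all 15 libraries. It held 49.3% ± 5.95 (SD, n = 7) of the summed level in AML and 47.4% ± 1.41 (SD, n = 4) in whole marrow, but 73.8% ± 0.80 (SD, n = 4) in lineage-negative marrow. Its lowest share in lineage-negative marrow, 73.0%, was above the highest in any other library, 57.1%. Ms4a4c was next in AML and whole marrow, with 24.3% and 25.4%, but held 8.30% in lineage-negative marrow. Ms4a6b kept to 13.02% to 18.7% in all libraries.

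The scarcer genes differed in their shares as well. Ms4a4a held 1.41% to 6.46% in AML and 0.720% to 1.498% in whole marrow, ranges that overlap at their ends. Ms4a7 held 0.202% to 0.560% in AML and 1.17% to 1.93% in whole marrow, with no overlap. Ms4a4b held 0.873% to 3.43% in AML and 3.11% to 4.11% in whole marrow. Ms4a6d held 2.01% to 11.8% in AML, with 11.8% in replicate 6, against 3.24% to 5.43% in whole marrow and 0.409% to 1.56% in lineage-negative marrow. The summed level was 5981 to 14523 normalized counts per kilobase in AML, 1044 to 2583 in whole marrow and 1290 to 1969 in lineage-negative marrow.

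**Figure D3:**
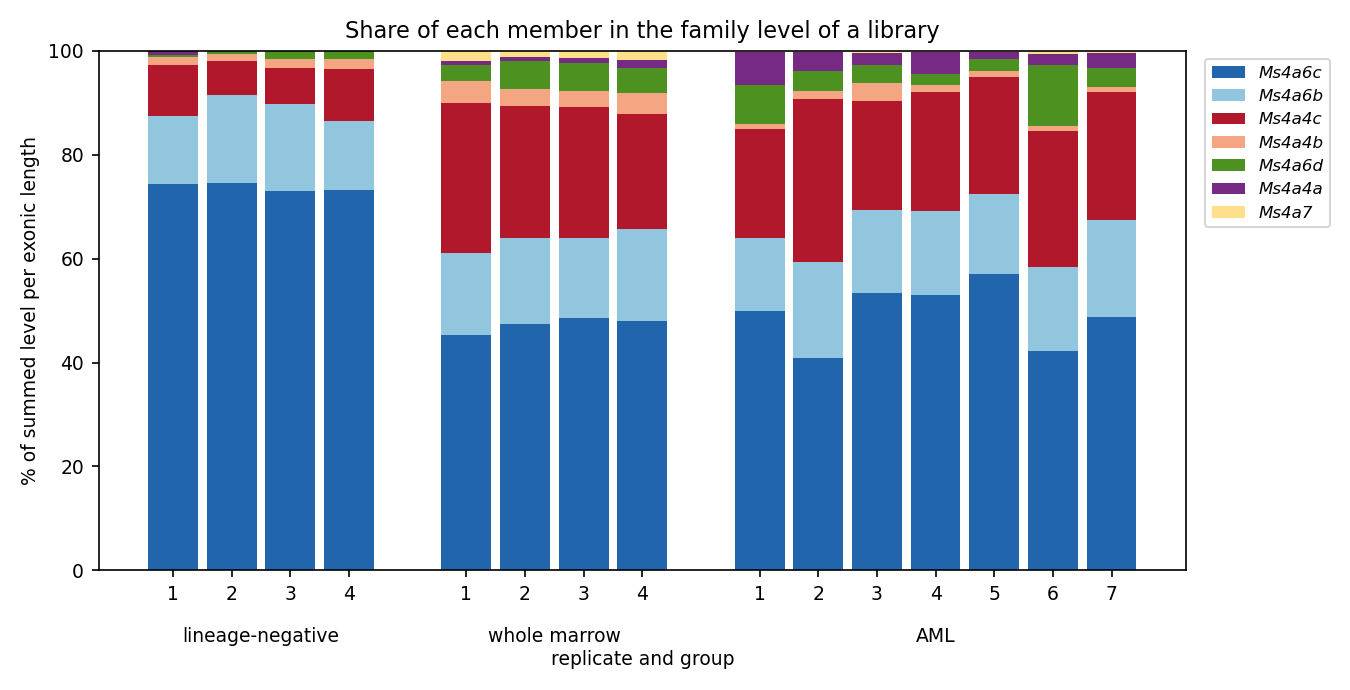
Share of each gene in the summed level per exonic length of the 7 genes, 1 bar per library. Lineage-negative marrows are filled mainly by Ms4a6c, at 73.0% to 74.6%, while AML and whole marrows share a mixture with Ms4a6c at 40.8% to 57.1%.

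Ratios of normalized counts within a library do not depend on scaling either. Ms4a6b over Ms4a4c was 0.905 to 1.16 in AML and 0.834 to 1.22 in whole marrow, against 2.02 to 4.01 in lineage-negative marrow. Ms4a6c over Ms4a6b was 1.51 to 2.56 in AML, 1.87 to 2.17 in whole marrow and 2.98 to 3.92 in lineage-negative marrow. Both ratios overlapped between AML and whole marrow, and both were higher in every lineage-negative marrow than in any other library. Ms4a7 over Ms4a6c separated AML from whole marrow, with 0.00332 to 0.0125 and 0.0232 to 0.0401. Ms4a4b over Ms4a4c was 0.0903 to 0.167 in 6 AML marrows and 0.441 in replicate 3, within the 0.334 to 0.483 of whole marrow, and 0.391 to 0.648 in lineage-negative marrow. Ms4a4b over Ms4a4c was thus below every whole marrow in those 6 AML marrows. Ms4a4a over Ms4a4c was 0.0297 to 0.147 in AML and 0.0119 to 0.0322 in whole marrow, ranges that overlap at their ends. Ms4a4a was chosen on its level in this contrast, so nothing is read from its ratio.

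The 7 AML marrows did not rank the genes alike. Replicate 4 was lowest for 5 of them (Ms4a4c, Ms4a6b, Ms4a6c, Ms4a6d and Ms4a7), and replicate 2 was highest for Ms4a4c, Ms4a6b and Ms4a6c. Replicate 1 was highest for Ms4a4a, at 2.92 times the AML median, replicate 3 for Ms4a4b, replicate 6 for Ms4a6d and replicate 7 for Ms4a7. Ms4a6c varied least, 1.87 times between the lowest and the highest AML marrow. Ms4a6d varied most, 7.38 times, and Ms4a4a 5.19 times. Replicate 6 combined the highest Ms4a6d value with the second lowest Ms4a6c value, 5841. That library also had the highest receptor background of the AML group, and without replicates 5 and 6 the same 6 of 6 genes were called against lineage-negative marrow.

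**Figure D4:**
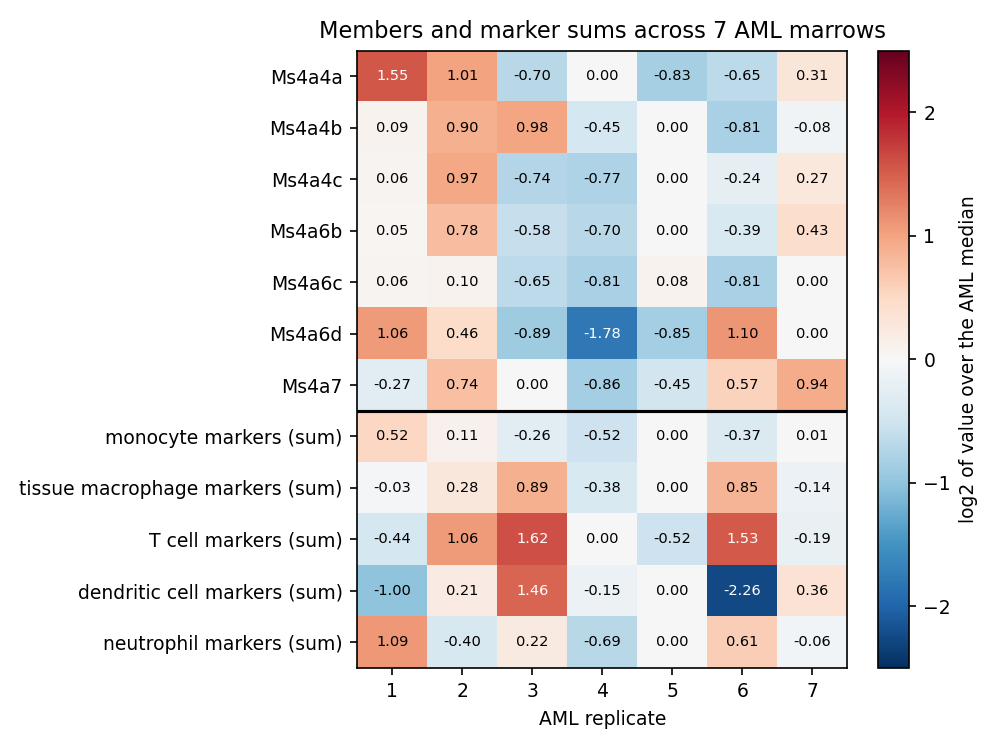
Log2 of each AML marrow's value over the AML median, for the 7 genes and for the summed levels of marker lists below the line (red above, blue below the median). Ms4a6d ranges from −1.78 in replicate 4 to 1.10 in replicate 6, and dendritic cell markers from −2.26 in replicate 6 to 1.46 in replicate 3.

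The rest of the family did not move as a block. Of 13 other family genes (the remaining Ms4a genes and the related Tmem176a and Tmem176b), 7 had enough reads. In AML against lineage-negative marrow 3 were called higher and 1 lower, in lineage-negative against whole marrow 3 higher and 3 lower (1 higher and 3 lower with TMM), and in AML against whole marrow 3 higher and 3 lower under both scalings. Ms4a8a was the only Ms4a gene among the 3 higher in AML than in whole marrow. It was measured at 169 to 763 in AML, at 38.6, 96.5, 56.4 and 66.9 in whole marrow, and at 7.26, 1.76, 0 and 0 in lineage-negative marrow. It was higher in AML than in whole marrow by 2.46 ± 0.52 (adjusted p = 0.000522; TMM 1.77, adjusted p = 0.0122). Tmem176a and Tmem176b, paired genes of dendritic and myeloid cells, were higher in AML than in whole marrow by 2.81 and 2.40, with adjusted p = 1.84e-06 and 1.47e-05 (TMM 2.11 and 1.71).

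The 3 family genes lower in AML than in whole marrow were Ms4a1, Ms4a2 and Ms4a14. Ms4a1, the B cell gene, had a log2 difference of −2.71 ± 0.75 (adjusted p = 0.00416; TMM −3.40), with values of 33.1 to 1417 in AML and 510 to 1134 in whole marrow. It was higher in AML than in lineage-negative marrow, by 4.10 (adjusted p = 0.000163). All 6 B cell markers were likewise lower in AML against whole marrow. Ms4a2, the mast cell and basophil gene beyond Ms4a6d, stood at 13.5 to 157 in AML, 215 to 417 in whole marrow and 1620 to 2611 in lineage-negative marrow, 3 ranges that do not overlap. Ms4a14, at values up to 38.6, had a difference of −2.15 (adjusted p = 0.00906; TMM −2.76). This call was lost without whole marrow replicate 1 (−1.77, adjusted p = 0.0529), which holds the 38.6, with the background subtracted (−1.30, adjusted p = 0.154), and with quantile scaling (−1.60, adjusted p = 0.0992). Ms4a3, the granulocyte-monocyte progenitor gene next to Ms4a2, had adjusted p = 0.0786, 0.126 and 0.871 in the 3 comparisons and did not pass, at 495 to 3793 in AML, 753 to 2250 in whole marrow and 2275 to 3368 in lineage-negative marrow. Ms4a4d, which lies between Ms4a6b and Ms4a6d, was measured at 3.78 to 11.1 in AML and 6.28 to 13.6 in whole marrow.

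**Figure D5:**
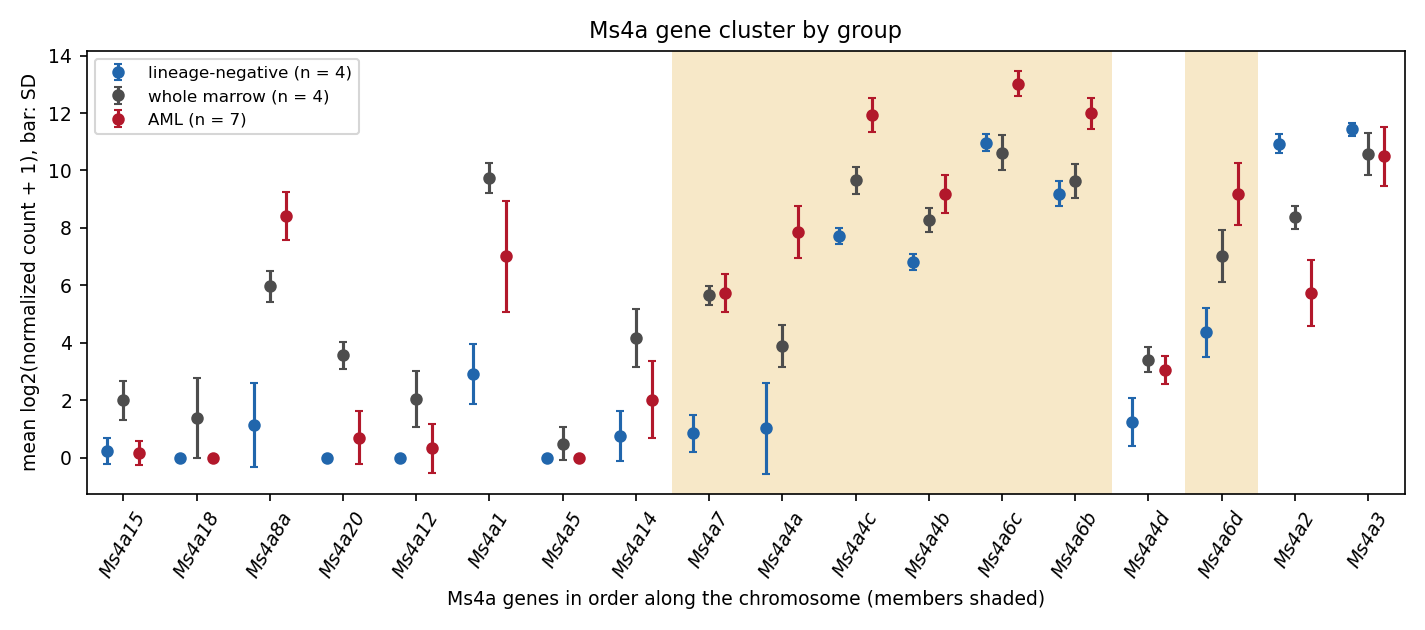
Mean log2(normalized count + 1) with SD bars for the Ms4a genes in their order along the chromosome, by group, with the 7 members shaded. AML means are above both normal groups from Ms4a4a to Ms4a6b, while Ms4a1 and Ms4a2 on either side are lower in AML than in whole marrow.

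A list of 9 genes of receptors and adaptors, named as possible partners of MS4A proteins, was counted. It held Trem2, Tyrobp, Clec7a, Fcer1g, Fcer1a, Fcgr1, Fcgr2b, Fcgr3 and Fcgr4. Links to MS4A proteins are given here only for dectin-1, TREM2 and the immunoglobulin E receptor, and no partnership was tested. In AML against lineage-negative marrow 8 were called higher and 1 lower, and in lineage-negative against whole marrow 6 were called lower and 1 higher (7 and 0 with TMM). In AML against whole marrow 6 were called higher and 1 lower, but 2 and 1 with TMM. Clec7a, which encodes dectin-1, stood at 3056 to 5609 in AML, 1420 to 2823 in whole marrow and 272 to 498 in lineage-negative marrow. Its difference between AML and whole marrow was 1.23 (adjusted p = 0.000124), or 0.54 with TMM. Trem2 stood at 193 to 467 in AML, 74.5 to 161 in whole marrow and 50.2 to 133 in lineage-negative marrow, a difference from whole marrow of 1.46 (adjusted p = 0.000383), or 0.77 with TMM. Tyrobp and Fcer1g, which encode signalling adaptors, were higher in AML than in whole marrow by 1.06 and 1.19. With TMM these differences were 0.36 and 0.49, no longer past the threshold. The 2 that passed under both scalings were the Fc gamma receptors Fcgr1 (2.52, TMM 1.83) and Fcgr2b (1.83, TMM 1.13). Fcer1a, the alpha chain that pairs with MS4A2, was the 1 called lower, by −2.52 (adjusted p = 0.000996; TMM −3.20).

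Markers of several cell types differed between the same groups, in both directions. Monocyte markers (among them Ly6c2, Ccr2, Csf1r, Cx3cr1 and Lyz2) were called higher in AML than in lineage-negative marrow for 10 of 10. They were called higher than in whole marrow for 9 of 10, and for 5 of 10 with TMM. Their summed level was 231169 to 475401 in AML, 81119 to 199348 in whole marrow and 22440 to 37781 in lineage-negative marrow. Lyz2 alone made up most of this sum in AML and whole marrow but not in lineage-negative marrow. It was 63342 of 81119 in whole marrow replicate 1, against 2602 of 30083 in lineage-negative replicate 2. In lineage-negative against whole marrow, 3 of 10 were called lower with a median log2 difference of −0.33 (5 of 10 and −1.02 with TMM). Of all genes, 17.2% were called lower there, or 24.7% with TMM. Of the tissue macrophage markers, 9 of 10 had enough reads, and 8 of these were called higher in AML than in lineage-negative marrow, with sums of 3741 to 8998 and 426 to 850. Against whole marrow 2 were called higher and 2 lower (0 and 2 with TMM). Marco, the marker without enough reads, stood at 41.7 and 22.2 in AML replicates 3 and 6. In the other AML marrows it was at 0 to 2.53, in whole marrow at 0 to 4.17 and in lineage-negative marrow at 0 to 2.61. Neutrophil markers were called higher in AML than in lineage-negative marrow for 8 of 8, with sums of 381254 to 1316088 in AML, 407718 to 1098173 in whole marrow and 929 to 15824 in lineage-negative marrow. Dendritic cell markers were called higher than in lineage-negative marrow for 5 of 6, with sums of 1098 to 14548 in AML, 830 to 1271 in whole marrow and 703 to 1082 in lineage-negative marrow. Progenitor markers were called lower in AML than in lineage-negative marrow for 6 of 6 and mast cell and basophil markers for 5 of 5. Against whole marrow, 6 of 6 erythroid markers were called lower in AML, with a median log2 difference of −8.29, or −8.98 with TMM. The median of the 8 neutrophil markers against whole marrow was −0.21, or −0.9 with TMM. The median of all genes there was 0.67, or −0.01 with TMM. The part of these cell types in the levels of the Ms4a genes was not tested.

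The genes nearest to each member were found over the 15 samples as those with the smallest root mean square (RMS) difference between centred log2 profiles. This is a description: the groups dominate it and all genes share the libraries. For Ms4a4a, Clec4a1 (0.877), a C-type lectin receptor gene, and Arhgef37 (0.930) were among the 3 nearest. Clec4a1 averaged 792 ± 216 (SD, n = 7) in AML. Its means were 152 ± 62.0 (SD, n = 4) in whole and 12.2 ± 17.999 (SD, n = 4) in lineage-negative marrow. For Ms4a4c they were Mcub (0.336), Zbp1 (0.366), a sensor of Z-form nucleic acids, and Ifi211 (0.397), an interferon-inducible gene. For Ms4a4b they were Arl5c (0.315), Ptprc (0.355), the pan-leukocyte antigen CD45, and Tmsb4x (0.373).

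The MS4A6 genes had other neighbours. Nearest to Ms4a6c were Npc2 (0.281), a lysosomal cholesterol carrier, Scpep1 (0.291) and Ly86 (0.309), the partner of the receptor RP105. Nearest to Ms4a6b were Trex1 (0.339), a DNA exonuclease, Parp12 (0.348) and Pros1 (0.350). Ms4a6d had Zbp1 (0.701), Gpr141 (0.789) and the macrophage antigen gene Adgre1 (0.835), and Ms4a7 had Pgap1 (0.474), Gpr84 (0.570) and Clec4a2 (0.585). Among the members themselves, Ms4a6b and Ms4a6c were the nearest pair, at 0.387. Ms4a4b and Ms4a4c, with the most alike coding sequences, were at 0.96, and Ms4a4a and Ms4a4b were farthest apart, at 2.21. Part of the value of Ms4a4b, Ms4a4c, Ms4a6b and Ms4a6c depends on how shared reads were divided between genes, which also bears on these distances.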

How the data were processed

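The labels give TRIzol extraction and TruSeq stranded libraries of total RNA. The unit of the deposited table is signal, a normalized count: estimated counts per gene were divided by the authors by a DESeq2 size factor of the poscounts type, as the table's name states. The submitters' processing notes name mm10, STAR, Partek and DESeq2, with no versions or roles. The value of 1 read in a library was estimated as the step between its low values, and 79.6% to 85.5% of low values were whole multiples within 0.02. Whole reads were therefore not recovered, depth is an estimate, and tests on counts were not run. A floor of 3 reads was 1.96 to 4.09 normalized counts. Floors and intervals cover counting error alone and leave out the spread between samples. They also count PCR copies as reads, because these were not told apart by molecular identifiers.

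Genes with at least 10 in at least 4 samples were kept (18941, all 7 members among them). Log2(value + 1) entered one fit of 3 group means (limma 3.58.1, R 4.3.3, mean-variance trend, two-sided), with Benjamini-Hochberg adjustment over all genes kept. Differences are on this scale, which understates those of low genes. The procedure was tested on simulated data. TMM used trims of 0.3 and 0.05. Alignments used Biopython 1.88. The members, lists and tests were chosen with earlier results of these data known. Named are all members, the listed genes and the 3 nearest genes with a symbol per member; single genes of the lists were picked after their values were seen, and 1 nearest gene is left out. Alternatives were pseudocounts of 0.1 and 10, no filter, a mean of at least 50, TMM, quantile scaling, each pair of groups alone, a replicate block and leaving out libraries. Subtracting the receptor gene background and using the length of all exons were chosen after seeing the data.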

Additional observations from a re-analysis of the deposited data

Results flagged for a closer look

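In 2 of 21 gene-by-group sets of 4 or 7 libraries, 1 sample stood far from the others by Dixon's criterion, which chance meets in about 1 of 20 sets. Ms4a4a in lineage-negative replicate 1 was 9.08 normalized counts, where the other 3 were 0 to 0.653 (gap over range 0.928 against a critical value of 0.829). That library also had the highest lineage-negative sums of monocyte (37781), neutrophil (15824), erythroid (52623) and natural killer cell markers (2014). It did not have the highest sums of tissue macrophage, T cell, B cell, dendritic cell, progenitor, or mast cell and basophil markers. Ms4a6c in lineage-negative replicate 2 was 2704, where the other 3 were 1732 to 1896 (0.831 against 0.829). No explanation of either value was tested.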

How the results depend on the processing

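Of 298 refits of the tested members, 294 kept their direction and their side of the threshold and 0 lost a call. The exceptions were lineage-negative against whole marrow. Ms4a6b passed with TMM (−1.13) and quantile scaling (−1.16), and Ms4a6c changed sign, without passing, with TMM (−0.36) and quantile scaling (−0.28). The cause was not tested. Leaving out each library in turn left 6 to 6 members called in AML against lineage-negative and 4 to 4 in lineage-negative against whole marrow, and the median of the members in AML against whole marrow at 2.07 to 2.45. That median was 1.58 with TMM and 1.49 with quantile scaling. A mean of at least 50 leaves out Ms4a7. Ms4a4a in AML against lineage-negative marrow was 8.81 and 4.34 with pseudocounts of 0.1 and 10, and 5.26 against whole marrow with the background subtracted. With the length of all exons, Ms4a6c held 77.5% in lineage-negative marrow and Ms4a6b 11.3% in AML.

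Over all genes, counts moved by more than 1.5 times as follows. AML over lineage-negative marrow: 2225 higher with a mean of at least 50, against 3359. Lineage-negative over whole marrow: 2098 higher with TMM and 4133 with quantile scaling, against 6266, and 12497 lower with no filter and 1244 with a mean of at least 50, against 3259. AML over whole marrow: 897 higher with TMM, 2474 with quantile scaling and 3179 without whole marrow replicate 1, against 5167, and 11289 lower with no filter and 460 with a mean of at least 50, against 2132. The share of calls that were higher went from 70.8% to 22.8% with TMM for AML against whole marrow and from 65.8% to 31% for lineage-negative against whole marrow. Other family genes called lower against lineage-negative marrow in AML were 2 with quantile scaling, with the block, without AML replicate 6 and without AML replicates 5 and 6, against 1. With no filter, 8 were called lower in lineage-negative and 7 in AML against whole marrow. With a pseudocount of 10, Ms4a14 also lost its call in AML against whole marrow. Higher in lineage-negative than in whole marrow was 1 with TMM and with quantile scaling. Of the 9 receptor and adaptor genes, 2 were called higher in AML than in whole marrow with TMM and with quantile scaling. In lineage-negative over whole marrow, 0 of them were called higher with either scaling, and without whole marrow replicate 1.

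Samples with the same replicate number had correlations of deviations from their group means between −0.288 and 0.171. Low correlations cannot decide whether samples of the same number came from one animal, because library noise also lowers them. With the replicate number as a block, 6 members were called in AML against lineage-negative and 4 in lineage-negative against whole marrow, and the median in AML against whole marrow was 2.22. AML replicates 5 to 7 have no partner there. DESeq2 and edgeR on counts were not run. Depth limits Ms4a4a and Ms4a7 in lineage-negative marrow, with 11 and 5 reads.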
